A study of Mus musculus with 32 samples.

Results

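DKO_CD embryos, double knockouts for type II cadherins with an elongated midbrain (Mb) and a cranial defect but no exencephaly, were compared between Mb and forebrain (Fb) tissue. The samples were taken as the columns headed as DKO6-8 Mb and Fb inside the expression files, which gave 3 Mb and 3 Fb libraries of 32 in the series, and the 13415 genes that averaged 1 FPKM or more over these 6 libraries were analysed (FPKM are fragments scaled to transcript length and to the mapped fragments of the library). All embryos were of the B6C3F1 strain at E9.5. The sample labels give DKO_CD as a Cdh6 and Cdh8 double knockout and DKO_Ex, the double knockout with exencephaly, as a Cdh8 and Cdh11 double knockout, whereas the methods of the study describe both as Cdh8/11 DKO. WT embryos were wild type, and TKO_Ex embryos lacked Cdh6, Cdh8 and Cdh11 and had exencephaly. Mutants came from matings of mice heterozygous at the 3 genes. The alleles are small frameshift deletions in the exon with the start codon, which remove the protein and need not remove the transcript. Each tissue had 6 WT, 3 DKO_Ex, 3 DKO_CD and 4 TKO_Ex libraries, and the TKO_Ex libraries were not compared with DKO_CD here beyond the targeted genes. For 12 DKO files the heading inside the file and the record it is listed under name different DKO groups, and the headings were followed.

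In the closing neural tube, Fb and Mb are neighbouring compartments whose cells do not normally mix. The Fb is set up by transcription factors of the anterior neural plate and eye field, among them Six3, Rax and Lhx2, and the Mb by Otx2 together with the engrailed and Pax2/5/8 factors that act around the isthmic organizer, the signalling centre at the border of Mb and hindbrain. The organizer secretes Fgf8 and is flanked by Wnt1. Type II cadherins are calcium-dependent adhesion molecules, and their expression differs between such compartments.

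The depth of the DKO_CD libraries, estimated from the steps between low FPKM values, was 2.58 to 2.80 M fragments in Fb and 2.47 to 2.75 M in Mb, within the 1.97 to 3.25 M of all 32 libraries (M, 1e6). At the lowest of these depths, 1 FPKM of a 2000 bp transcript rests on about 4.94 fragments. The tissue labels held in all 6 libraries. Six3 lay at 33.1 to 56.9 FPKM in Fb and at 0.179 to 0.651 FPKM in Mb, and En2 at 0 to 0.207 FPKM in Fb and at 37.6 to 69.6 FPKM in Mb. The 9 hindbrain markers summed to 2.22 to 3.43 FPKM in Fb and to 2.80, 16.7 and 11.01 FPKM in Mb replicates 1 to 3, where WT Mb lay at 1.84 to 19.3 FPKM. Of these, Hoxb1, Hoxb2 and Hoxb3 were listed at 0 in all 6 libraries, 2 markers were tested and none passed. No pair of libraries held the same values, and the correlation across genes was 0.933 to 0.948 within a tissue and 0.916 to 0.933 between tissues. In bulk tissue, fewer cells of a type and less RNA per cell cannot be told apart.

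The replicates of each tissue were not alike along the rostro-caudal axis. Mb replicate 1 carried more transcripts of the rostral side than the other 2. The 24 Fb and eye-field transcription factors summed to 258 FPKM there and to 133 FPKM in each of Mb replicates 2 and 3. WT Mb lay at 134 to 274 FPKM, so the sum of Mb replicate 1 was within the WT range. Pax6, which in the early brain stops at the Fb/Mb border, lay at 40.01 FPKM in Mb replicate 1, close to the 44.5 to 59.4 FPKM of the Fb libraries, and at 10.9 and 7.41 FPKM in Mb replicates 2 and 3. Emx2, a factor of the dorsal Fb, lay at 11.4 FPKM in Mb replicate 1 against 0.295 and 2.30 FPKM in replicates 2 and 3, and Barhl2, a factor of the diencephalon, at 8.47 against 0.188 and 0.373 FPKM. Mb replicate 2 lay on the caudal side. There Otx2, which ends at the Mb/hindbrain border, was at 20.2 FPKM against 163 and 93.3 FPKM in replicates 1 and 3, whereas Gbx2, its counterpart on the hindbrain side, was at 8.58 and 9.72 FPKM in replicates 2 and 3 against 1.84 FPKM in replicate 1. Among the Fb libraries, replicate 2 stood apart. Irx1, an Mb and caudal Fb gene, was at 24.2 FPKM there against 1.23 and 7.57 FPKM in replicates 1 and 3, and Lhx2 at 30.4 against 97.1 and 73.3 FPKM. The same library had the highest sum of 8 surface ectoderm markers, 216 FPKM against 99.5 and 80.8 FPKM, and the lowest sum of the 9 cranial mesenchyme markers measured, 114 FPKM against 210.1 and 244 FPKM. The part of these differences between libraries in the results below was not tested. The results rest on groups of 3, and the smallest p of an exact two-sided permutation test of 3 against 3 is 0.10, so genes were tested only in the fit across all genes.

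**Figure D1:**
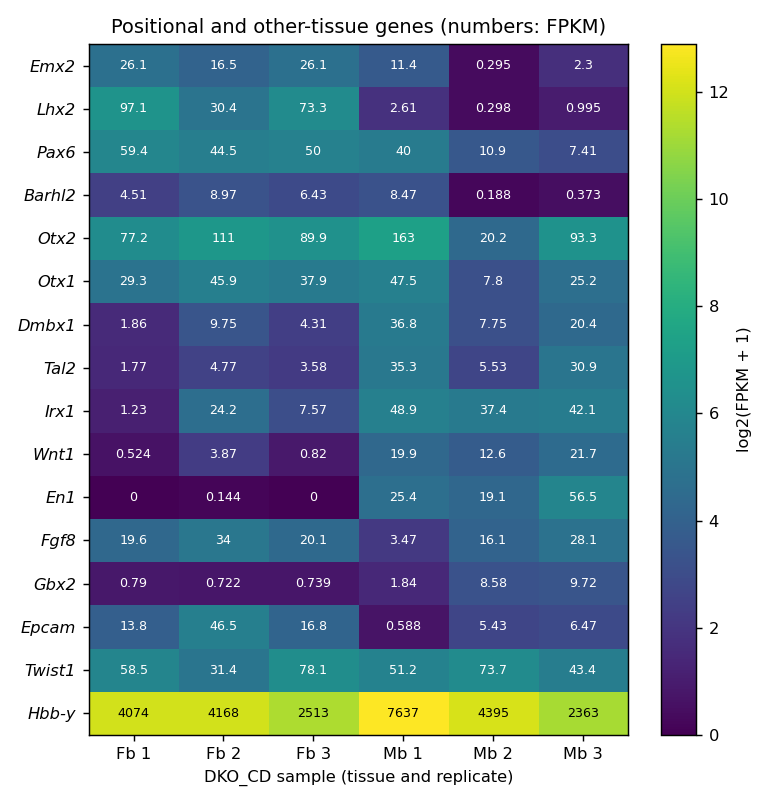
Expression of 16 positional and other-tissue genes in the 6 DKO_CD libraries, with colour as log2(FPKM + 1), the FPKM written in each cell, genes as rows and libraries as columns. Pax6, Emx2 and Barhl2 are high in Mb replicate 1 as in the Fb libraries, Otx2 and Otx1 are lowest in Mb replicate 2, and Irx1 and Epcam are highest among the Fb libraries in replicate 2.

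The transcripts of the targeted genes were present. Cdh8 (chr8:99024471-99416471) lay at 0.449, 1.44 and 0.988 FPKM in DKO_CD Fb and at 1.47, 1.005 and 1.25 FPKM in DKO_CD Mb. In WT Mb its lowest, median and highest values were 1.14, 4.60 and 10.1 FPKM, so that 2 of the 3 DKO_CD Mb libraries were in the lower end of the WT range and 1 was below it. The Mb minus Fb difference of Cdh8 on the log2(FPKM + 1) scale was 1.13 ± 0.31 (SE) in WT and 0.22 ± 0.31 in DKO_CD. The difference between them, -0.91 (95% interval -1.95 to 0.14), did not pass the threshold. Cdh6 (chr15:13028701-13173675) lay at 3.43, 1.72 and 2.78 FPKM in Fb and at 1.76, 2.11 and 1.29 FPKM in Mb, overlapping between the tissues and with the WT range of 1.04 to 3.55 FPKM in Mb and 2.04 to 3.997 FPKM in Fb except in Fb replicate 2. Cdh11 (chr8:102632095-102785642), the gene that the label of DKO_CD does not name, lay at 25.3, 12.7 and 22.6 FPKM in Fb and at 22.4, 27.2 and 16.6 FPKM in Mb. Its Mb minus Fb difference of 0.15 ± 0.29 was -0.13 without Fb replicate 2. In the libraries labelled TKO_Ex, Cdh6 lay at 1.84, 0.766, 3.74 and 0.572 FPKM in Fb and at 0.388, 0.353, 3.10 and 0.345 FPKM in Mb. The lowest WT value was 2.04 FPKM in Fb and 1.04 FPKM in Mb. In Fb, the TKO_Ex libraries at 1.84, 0.766 and 0.572 FPKM and DKO_CD replicate 2 at 1.72 FPKM were below it. In Mb, the TKO_Ex libraries at 0.388, 0.353 and 0.345 FPKM were below it, and no DKO_CD library was. Whether DKO_CD carried the same Cdh6 allele was not tested.

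The question put to the 6 libraries was which genes set the Mb apart from the Fb in DKO_CD. Regional transcription factors were among the genes with the largest differences, although the largest of all was that of the processed pseudogene Gm12013 (-7.66). En2 and En1, Cnpy1, Hes3, Nkx6-2 and Pax5 were higher in Mb, and Six3, Lhx2, Fezf1, Nkx2-1, Pitx1, the retinoic acid enzyme Aldh1a3 and the imprinted Notch-family ligand Dlk1 were lower. In limma with Benjamini-Hochberg adjustment, 68 of 13415 genes passed the threshold of an adjusted p under 0.05, which is 0.507% of the genes tested. Of these, 30 were higher in Mb (0.224% of those tested) and 38 were lower (0.283%), and 57 were protein-coding. An unadjusted p under 0.05 was reached by 1354 genes. The count moved with the design of the fit: it was 362 when all 32 libraries shared one estimate of the spread, 26 without Fb replicate 1 or without Fb replicate 3, 35 without Mb replicate 3 and 77 without Fb replicate 2. With the DKO files grouped by record the count was 344, and those libraries are the ones called DKO_Ex here. Of the 68, 20 passed whichever library was left out. With the replicate number as a block in the fit, 32 of the 68 lost their call. In all 68 genes the 3 Mb libraries did not overlap the 3 Fb libraries. That was so for 7.34% of all genes tested on the high side and for 8.21% on the low side.

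**Figure D2:**
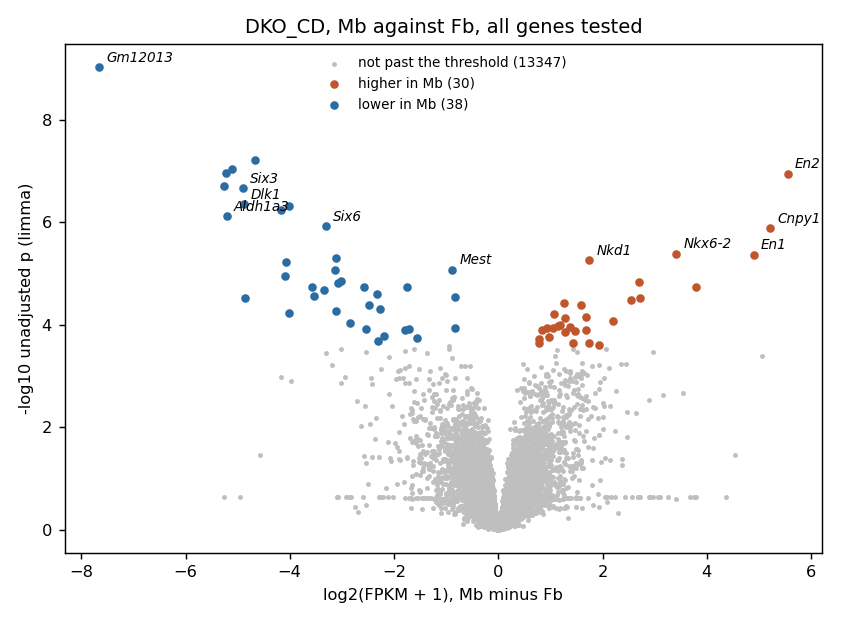
Mb minus Fb difference of log2(FPKM + 1) on the x axis against -log10 of the unadjusted limma p on the y axis for the 13415 genes tested in DKO_CD, 1 point per gene. The 30 genes higher in Mb are led by En2 and Cnpy1, and the 38 genes lower in Mb include Six3, Dlk1 and the pseudogene Gm12013.

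Promoter sequences are shown for Six3 and En1, which stand for the opposite sides of the comparison, for Nkd1, a target of Wnt signalling that was higher in Mb, and for Vax1, the Fb factor whose promoter held a match. They are the 250 bases before and 50 bases after the RefSeq start on GRCm38.p6, 5′ to 3′ on the gene's strand: Six3 at chr17:85620584-85620883 (plus strand), Vax1 at chr19:59170348-59170647 (minus strand), En1 at chr1:120602237-120602536 (plus strand) and Nkd1 at chr8:88527383-88527682 (plus strand). Capitals mark a match to CTTTGAT or its reverse ATCAAAG, the core of the motif bound by the Wnt effectors Tcf and Lef.
Six3: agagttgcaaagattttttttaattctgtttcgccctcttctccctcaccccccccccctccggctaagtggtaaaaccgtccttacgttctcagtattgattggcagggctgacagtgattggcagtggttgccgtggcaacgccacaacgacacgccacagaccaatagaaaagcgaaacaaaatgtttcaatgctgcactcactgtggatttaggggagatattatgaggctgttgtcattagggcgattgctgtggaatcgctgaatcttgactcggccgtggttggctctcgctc
Vax1: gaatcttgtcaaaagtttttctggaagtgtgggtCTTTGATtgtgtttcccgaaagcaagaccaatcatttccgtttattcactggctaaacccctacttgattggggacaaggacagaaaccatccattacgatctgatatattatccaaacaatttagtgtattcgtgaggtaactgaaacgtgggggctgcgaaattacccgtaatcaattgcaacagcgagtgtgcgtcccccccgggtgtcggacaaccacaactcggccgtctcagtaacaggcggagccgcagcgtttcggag
En1: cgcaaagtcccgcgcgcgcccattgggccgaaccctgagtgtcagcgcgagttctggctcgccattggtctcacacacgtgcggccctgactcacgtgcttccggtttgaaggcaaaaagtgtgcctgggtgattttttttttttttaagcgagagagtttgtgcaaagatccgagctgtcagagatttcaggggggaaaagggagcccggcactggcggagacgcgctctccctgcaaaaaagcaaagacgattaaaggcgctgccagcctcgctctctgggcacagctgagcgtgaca
Nkd1: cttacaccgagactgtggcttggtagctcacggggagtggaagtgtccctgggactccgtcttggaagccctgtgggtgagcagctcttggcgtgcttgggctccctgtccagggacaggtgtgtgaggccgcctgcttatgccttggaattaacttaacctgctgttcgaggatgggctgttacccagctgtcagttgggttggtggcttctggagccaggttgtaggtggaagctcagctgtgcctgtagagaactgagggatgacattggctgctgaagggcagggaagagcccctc
Of the 68 genes, 39 had a promoter in the table. CTTTGAT on either strand was found for 1 of these genes, Vax1, and in 3.73% of all 32851 promoters. TAATTA, which reads the same on both strands and is the core of many homeodomain sites, was found for 2 genes, Cntfr and Tagln3, and in 5.29% of all promoters. The median GC content was 60.0% in the 49 promoters of these genes and 52.7% in all promoters, and the median number of CG dinucleotides was 18 and 7.

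The Fb side held most of its identity genes. Of 24 Fb and eye-field transcription factors, 22 passed the filter on low values, 14 were lower in Mb and none was higher. Their median difference was -2.93 on the log2(FPKM + 1) scale, beside -0.02 over all genes tested. In 17 of the 22 all Mb libraries were below all Fb libraries, beside 8.21% of all genes tested. Six3 (chr17:85613608-85629302), which keeps the anterior neural plate free of Wnt signalling, lay at 56.9, 33.1 and 39.7 FPKM in Fb and at 0.651, 0.179 and 0.533 FPKM in Mb, a difference of -4.91 ± 0.25 (adjusted p = 0.00041). No Mb library came near the lowest Fb library. Lhx2, a LIM-homeodomain factor of eye and cortex, fell by 4.86 ± 0.51 on this scale, with 2.61 FPKM in Mb replicate 1 and under 1 FPKM in the others. Its call was lost without Fb replicate 1 or 3 or Mb replicate 3, as was that of Rax, and that of Fezf2 without Fb replicate 1 or 3. The call of Emx1 was lost whichever library was left out. Fezf1 and Fezf2, zinc finger repressors of the rostral Fb, lay at 13.97 to 23.4 and 6.51 to 15.8 FPKM in Fb and at no more than 0.179 and 0.188 FPKM in Mb. The eye and dorsal or ventral Fb genes Six6, Rax, Vax1 and Emx1, were listed at 0 in all 3 Mb libraries, so the size of their difference depends on the pseudocount. With a pseudocount of 0.1 the median of the list was -4.81, and with 5 it was -1.46. In Fb, Six6 lay at 9.99, 8.69 and 8.10 FPKM, Rax at 13.0, 5.36 and 10.9 FPKM and Vax1 at 8.79, 5.78 and 8.67 FPKM. Nkx2-1, the hypothalamic factor, lay at 31.0, 12.9 and 23.3 FPKM in Fb and at 1.58, 0 and 0 FPKM in Mb, where only replicate 1 showed it. Its call was lost without Fb replicate 1 or 3 or without Mb replicate 2 or 3.

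The other 8 Fb genes tested did not pass. Pax6 fell short of the threshold (-1.70 ± 0.54, adjusted p = 0.336), with Mb replicate 1 close to the Fb libraries, and so did Emx2 (-2.64 ± 0.75, adjusted p = 0.273) and Barhl2 (-1.57 ± 0.78, adjusted p = 0.574). The Pax6 result hung on that library: without Mb replicate 1 it passed (-2.38, adjusted p = 0.0207 in limma). Pax6 passed in 2 of 17 alternative settings of the fit. Otx1, at 47.5, 7.80 and 25.2 FPKM in Mb and 29.3 to 45.9 FPKM in Fb, overlapped between the tissues. Nr2f1, an orphan nuclear receptor, was at similar levels in both (47.6 to 77.7 FPKM in Fb, 60.0 to 93.4 FPKM in Mb), and Sp8 also overlapped, at 10.2 to 13.9 FPKM in Fb and 7.90 to 12.9 FPKM in Mb.

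The Mb side was led by the engrailed genes. Of 20 Mb and isthmus transcription factors, 19 were tested, 4 were higher in Mb and none was lower. The median difference was 1.81, and 12 had all Mb libraries above all Fb libraries, beside 7.34% of all genes tested. En2 (chr5:28165694-28172166) lay at 44.4, 37.6 and 69.6 FPKM in Mb and at 0, 0.207 and 0 FPKM in Fb, a difference of 5.55 ± 0.26 (adjusted p = 0.000302). En1 (chr1:120602418-120607992) lay at 25.4, 19.1 and 56.5 FPKM in Mb and at 0, 0.144 and 0 FPKM in Fb, a difference of 4.90 ± 0.38. Both were highest in Mb replicate 3. Pax5, which acts with Pax2 in the Mb, lay at 13.6, 13.5 and 21.5 FPKM in Mb and at 1.06 to 2.57 FPKM in Fb. Its call was lost without Fb replicate 3 or Mb replicate 3, and with the replicate number as a block. Pou3f3, a POU factor of neural progenitors, was 20.4 to 24.7 FPKM in Mb and 9.03 to 11.2 FPKM in Fb, a difference of 1.14 ± 0.15, and its call was lost whichever library was left out.

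Most other Mb factors were higher on average without passing. Phox2a, the determinant of oculomotor neurons, lay at 4.16, 2.31 and 4.53 FPKM in Mb against 0.277, 0 and 0 FPKM in Fb (2.07 ± 0.31, adjusted p = 0.0546). Pax8 lay at 6.70 to 10.1 FPKM in Mb and 0.321 to 3.91 FPKM in Fb (2.03 ± 0.48, adjusted p = 0.185). Irx1, Irx2 and Irx3, of the Iroquois family, had differences of 2.47 ± 0.78, 2.64 ± 0.66 and 1.47 ± 0.27, and in each the highest Fb library was replicate 2. Dmbx1 and Tal2, factors of the Mb, lay at 36.8 and 35.3 FPKM in Mb replicate 1, at 20.4 and 30.9 FPKM in replicate 3 and at only 7.75 and 5.53 FPKM in replicate 2. Dmbx1 of Mb replicate 2 was below the 9.75 FPKM of Fb replicate 2. Otx2 overlapped fully between the tissues (20.2 to 163 FPKM in Mb, 77.2 to 111 FPKM in Fb), and its difference of -0.43 turned to 0.42 without Mb replicate 2.

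**Figure D3:**
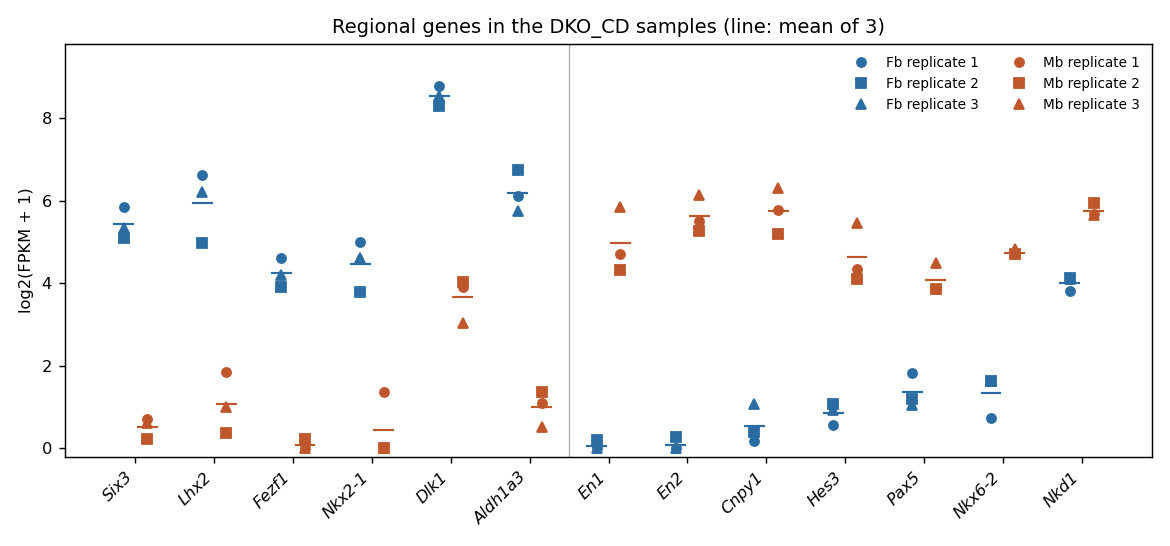
Log2(FPKM + 1) on the y axis for 13 regional genes on the x axis in the 6 DKO_CD libraries, blue for Fb and orange for Mb, with a shape for each replicate number and a line at the mean of 3. In each of the 13 genes the Fb and Mb points do not overlap, and the 3 En1 values in Mb spread from 19.1 to 56.5 FPKM.

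Fgf signalling from the isthmus is carried by Fgf8, Fgf17 and Fgf18 and read out by the feedback genes Spry1, Spry2, Dusp6, Etv4, Etv5 and Il17rd. Of 22 Fgf ligands and feedback genes, 20 were tested and 1, Cnpy1, was higher in Mb. The median difference was -0.00. Cnpy1 (chr5:28200819-28245806), which helps Fgf receptors mature at the isthmus, lay at 54.0, 35.7 and 77.9 FPKM in Mb and at 0.134, 0.322 and 1.09 FPKM in Fb, a difference of 5.21 ± 0.34. Fgf8 overlapped between the tissues, with 3.47, 16.1 and 28.1 FPKM in Mb and 19.6, 34.0 and 20.1 FPKM in Fb. The anterior neural ridge of the Fb is another known source of Fgf8. Mb replicate 1 was the lowest library in Fgf8, Fgf17 (1.72 FPKM against 13.9 and 22.4 FPKM), Etv5 (7.99 against 13.98 and 19.9 FPKM) and Spry1 (10.1 against 13.8 and 33.1 FPKM). Fgf15, a ligand made in dorsal Mb and caudal Fb, lay at 63.0, 30.1 and 62.0 FPKM in Mb and at 17.6, 11.7 and 29.4 FPKM in Fb. The Mb libraries were all higher, yet the difference of 1.38 ± 0.39 did not pass (adjusted p = 0.275). Fgf10 lay at 3.14 to 5.99 FPKM in Fb and at 0.0895 to 0.878 FPKM in Mb (-1.88 ± 0.33, adjusted p = 0.0959).

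Wnt genes fell on both sides of the border. Of 30 Wnt ligands, targets and antagonists, 27 were tested, 1 was higher in Mb and none was lower. The median difference was 0.71. Nkd1, an antagonist induced by Wnt signalling, lay at 50.2, 60.2 and 49.1 FPKM in Mb and at 13.0, 16.4 and 16.2 FPKM in Fb, a difference of 1.75 ± 0.14 (adjusted p = 0.0043). The ligand Wnt1, of the dorsal midline and the isthmus, lay at 19.9, 12.6 and 21.7 FPKM in Mb and at 0.524, 3.87 and 0.820 FPKM in Fb (2.96 ± 0.46, adjusted p = 0.058). Wnt3a (5.51 to 9.29 against 1.03 to 3.27 FPKM) and the receptor Fzd10 (35.2 to 50.6 against 3.69 to 14.3 FPKM) were also separate between the tissues without passing. In Wnt1, Wnt3a and Fzd10 the highest Fb library was replicate 2. Without Fb replicate 2, Wnt1 passed (3.48, adjusted p = 0.00905 in limma), and it passed in 5 of 17 alternative settings of the fit. In the other direction Wnt7b (-2.54 ± 0.39) and Wnt8b (-3.30 ± 0.51), ligands of the Fb, had an adjusted p of 0.0580 and 0.0584. The targets Axin2 (1.07 ± 0.24) and Lef1 (1.12 ± 0.17) had every Mb library above every Fb library, and an adjusted p of 0.161 and 0.0565. Outside the lists, and chosen after their values were seen, the Wnt receptors Fzd5 (4.93 to 7.57 FPKM in Fb, 0.362 to 0.516 FPKM in Mb) and Fzd8 (16.9 to 22.1 and 4.48 to 5.95 FPKM) were lower in Mb, as was the antagonist of Wnt and Fgf receptors Shisa2, named by the rule, at 19.6 to 38.8 FPKM in Fb and 1.87 to 2.79 FPKM in Mb. The calls of Fzd5 and Fzd8 were lost without Fb replicate 1 or 3, and that of Shisa2 without Fb replicate 3.

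Along the dorso-ventral axis no listed gene passed. Of 19 ventral and Hedgehog genes, 16 were tested and the median difference was 0.45. Shh, the ventral midline ligand, overlapped at 12.5 to 17.1 FPKM in Fb and 9.81 to 19.2 FPKM in Mb, as did its receptor and target Ptch1 (20.8 to 21.2 and 21.01 to 23.6 FPKM). Foxa2, of the floor plate, lay at 11.9 to 15.96 FPKM in Mb and 3.08 to 6.801 FPKM in Fb (1.41 ± 0.27, adjusted p = 0.111), and Nkx6-1 at 9.98 to 19.0 and 1.28 to 4.73 FPKM (2.03 ± 0.38, adjusted p = 0.106). Its relative Nkx6-2, outside the lists but named by the rule, did pass, at 25.0, 25.3 and 27.3 FPKM in Mb and 0.678, 2.08 and 2.12 FPKM in Fb (3.41 ± 0.27, adjusted p = 0.00378). Of 20 dorsal and roof plate genes, all were tested, with a median of 0.44. Pax3 (11.3 to 15.8 against 4.78 to 7.84 FPKM) and Msx1 (43.5 to 82.2 against 20.1 to 28.9 FPKM), early dorsal factors, were separate between tissues, with an adjusted p of 0.126 and 0.114. Msx3 and Olig3, dorsal genes of hindbrain and spinal cord, were nearly restricted to Mb replicate 2 among the Mb libraries (33.4 FPKM against 0 and 2.35 FPKM, and 19.0 FPKM against 1.37 and 0.430 FPKM). Of 16 retinoic acid genes, 13 were tested and 1 was lower in Mb. Aldh1a3, the enzyme that makes retinoic acid in the early eye and face ectoderm, lay at 67.9, 106 and 52.7 FPKM in Fb and at 1.14, 1.57 and 0.432 FPKM in Mb, a difference of -5.21 ± 0.32, with the highest value in the Fb library that was richest in surface ectoderm markers.

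Genes of beginning neurogenesis leaned to the Mb. Of 26 proneural and early neuron genes, 25 were matched in the files and 23 were tested. All 23 differences were above 0, with a median of 0.91 and a range of 0.06 to 2.26. Over all 13415 genes tested, 6172 were above 0. In 14 of the 23 every Mb library was above every Fb library, beside 7.34% of all genes tested, but only 1 of the 23 passed the threshold. Stmn2, a microtubule regulator of young neurons, lay at 32.8, 14.3 and 21.6 FPKM in Mb and at 2.87, 6.98 and 3.65 FPKM in Fb (2.12 ± 0.37, adjusted p = 0.0932). Neurog2 (5.85 to 10.6 against 2.45 to 10.6 FPKM) and Isl1 (2.92 to 4.94 against 2.53 to 3.98 FPKM) overlapped. Nefm, a neurofilament subunit outside the list but named by the rule, lay at 34.2, 21.5 and 30.5 FPKM in Mb and at 2.87, 5.97 and 3.60 FPKM in Fb (2.55 ± 0.27). Its call was lost without Fb replicate 1 or 3 or without Mb replicate 1 or 3, and with the replicate number as a block.

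Of 20 neural progenitor genes, all tested, 2 were higher in Mb and none was lower, with a median of -0.07. Hes3, a Hes repressor that keeps isthmic progenitors undifferentiated, lay at 19.4, 16.3 and 43.4 FPKM in Mb and at 0.475, 1.09 and 0.891 FPKM in Fb. Vim, an intermediate filament of progenitors and mesenchyme, lay at 511, 423 and 398 FPKM in Mb and at 252, 258 and 228 FPKM in Fb, a small difference of 0.84 ± 0.11 with no overlap. The Hes3 call was lost without Fb replicate 1 or 3, and the Vim call whichever library was left out. Hes1 lay at 24.2 to 31.9 FPKM in Mb and 47.6 to 56.3 FPKM in Fb (-0.94 ± 0.14, adjusted p = 0.0507). Sox1, Sox2 and Sox3, the pan-neural factors, overlapped between the tissues. None of 27 cell cycle genes passed, all were tested, and their median was -0.03 with a range of -0.31 to 1.04. The proliferation gene Mki67 lay at 41.4 to 47.3 FPKM in Fb and 42.5 to 55.0 FPKM in Mb, and the largest difference of the list was that of the inhibitor Cdkn1a, at 3.28 to 9.96 FPKM in Mb and 1.45 to 2.96 FPKM in Fb. None of 24 apical constriction and actomyosin genes passed either, with a median of -0.02. Shroom3, which acts in apical constriction, lay at 13.9 to 14.2 FPKM in Fb and 11.03 to 15.5 FPKM in Mb. Myh9, a non-muscle myosin heavy chain, was separate at 34.1 to 43.3 FPKM in Mb and 54.2 to 59.9 FPKM in Fb (-0.59 ± 0.13, adjusted p = 0.143).

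No adhesion list was regional as a whole. Of 16 classical cadherins, 12 were tested and none passed, with a median of -0.09. Cdh2, or N-cadherin, the shared cadherin of the neural tube, lay at 57.3 to 69.97 FPKM in Fb and 49.6 to 65.3 FPKM in Mb. Cdh22 was the only member with all Mb libraries above all Fb libraries, at 1.23 to 2.67 against 0.197 to 0.803 FPKM (0.85 ± 0.33, adjusted p = 0.443). Of 10 delta protocadherins, 6 were tested and none passed. Pcdh19 lay at 1.42 to 2.70 FPKM in Mb and 4.77 to 7.55 FPKM in Fb (-1.23 ± 0.26, adjusted p = 0.143), whereas Pcdh8 lay at 26.8, 11.5 and 16.5 FPKM in Mb and at 1.18, 10.2 and 3.47 FPKM in Fb. Of 22 ephrins and Eph receptors, which sort cells at compartment borders, 19 were tested and 1 was higher in Mb. Efnb3, an ephrin ligand, lay at 52.8, 62.6 and 55.5 FPKM in Mb and at 20.3, 29.0 and 24.4 FPKM in Fb (1.19 ± 0.15, adjusted p = 0.0286), and its call was lost when any library other than Fb replicate 2 was left out. Efna2 was high in Mb replicates 1 and 3 (114 and 95.4 FPKM) and lay at 34.5 FPKM in replicate 2, against 26.1 to 28.7 FPKM in Fb. Epha4, a receptor of Efnb3, lay at 1.32 to 3.46 FPKM in Mb and 6.88 to 8.12 FPKM in Fb (-1.33 ± 0.28, adjusted p = 0.135).

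Genes past the threshold outside the lists fell into several kinds, named here after their values were seen unless the rule named them. Imprinted genes were among those lower in Mb. Dlk1, named by the rule, lay at 442, 312 and 373 FPKM in Fb and at 14.2, 15.3 and 7.20 FPKM in Mb. Rian and Mirg, noncoding RNAs of the same imprinted domain, had differences of -1.57 ± 0.22 and -2.53 ± 0.33, while Meg3 of that domain, at 72.4 to 205 FPKM in Fb and 33.1 to 69.2 FPKM in Mb, did not pass (adjusted p = 0.257). Mest, an imprinted gene of another locus, lay at 768, 697 and 756 FPKM in Fb and at 409, 419 and 371 FPKM in Mb, the steadiest of these differences (-0.89 ± 0.08). Its neighbour Copg2, whose annotation overlaps Mest, followed it (-0.84 ± 0.09). The reads were aligned as a stranded library, the strand setting of Cufflinks is not given in the sources used here, and values of such overlapping genes are uncertain. The call of Mest was kept whichever library was left out, that of Copg2 was lost without Fb replicate 1 or 3 or Mb replicate 1, and those of Rian and Mirg were lost in 5 of 6 cases. Other imprinted genes overlapped between the tissues or moved little, as Peg3 at 34.9 to 41.7 FPKM in Fb and 34.6 to 37.3 FPKM in Mb.

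Ordered by start along each chromosome, the 68 genes included 8 pairs of consecutive genes within 50 kb. In all 8 both members differed in the same direction. The share of such pairs among all genes tested was not computed, so this count has no background. The annotations overlap for Six3os1 and Gm27801, for Pax5 and 5730488B01Rik, and for Mest and Copg2. They also overlap for Six3os1 and Six3, which are not consecutive and were not counted. The uncertainty given above for overlapping genes holds for each of these pairs. En2 and Cnpy1 lie 28652 bp apart on chromosome 5 and were both higher in Mb. Fezf1 and C130093G08Rik lie 2770 bp apart and were both lower. Six3, the antisense transcript Six3os1 (54.7, 32.1 and 48.3 FPKM in Fb, 0.491, 0 and 0.0996 FPKM in Mb) and Gm27801 overlap or adjoin on chromosome 17. Gm27801 was listed at 0 in 2 of the 6 WT Fb libraries and lay at 20.8 to 70.1 FPKM in the others. The tubulin genes Tubb2a and Tubb2b, near-identical neighbours that can share reads, were both higher in Mb by 0.77 ± 0.11 and 0.78 ± 0.11. Tagln3 (1.42 ± 0.21) and the collapsin response mediator Dpysl3 (1.28 ± 0.16) were higher as well. The tubulin calls were lost whichever library was left out, and those of Tagln3 and Dpysl3 in 5 of the 6 cases. Pitx1 and Dlx5, which are known from facial ectoderm among other tissues, were lower in Mb. Pitx1 lay at 13.5 to 20.2 FPKM in Fb and 0 to 0.175 FPKM in Mb, and Dlx5 at 9.39, 23.3 and 13.4 FPKM in Fb and 0 to 0.726 FPKM in Mb, with Fb replicate 2 the highest in both. The Dlx5 call was lost without Fb replicate 3 or Mb replicate 2.

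Transcripts of other tissues moved with the comparison in part. The 8 surface ectoderm markers summed to 80.8 to 216 FPKM in Fb and to 21.8 to 77.6 FPKM in Mb, with 7 tested, none past the threshold, and a median of -0.98. The defining marker Epcam lay at 13.8, 46.5 and 16.8 FPKM in Fb and at 0.588, 5.43 and 6.47 FPKM in Mb. No marker was listed at 0 in all libraries of a tissue, and Grhl3 was listed at 0 in Mb replicate 1. The 9 cranial mesenchyme markers measured summed to 114 to 244 FPKM in Fb and 198 to 296 FPKM in Mb. All 9 were tested, with a median of 0.06, and 1, Col1a1, was higher in Mb, at 13.7, 11.3 and 10.6 FPKM against 3.68, 2.87 and 3.28 FPKM in Fb (1.59 ± 0.17). The Col1a1 call was lost when any library other than Fb replicate 2 was left out, and with the replicate number as a block. Anxa2, Lgals1 and Tmsb4x, which are broadly expressed in mesenchyme, also were higher in Mb, Anxa2 by the rule at 20.4, 28.3 and 21.2 FPKM against 6.33, 8.13 and 5.18 FPKM. The calls of Anxa2 and Lgals1 were lost in 5 of the 6 cases when a library was left out, and that of Tmsb4x in 4. Neural crest (5 tested), endothelial (8) and primitive red cell markers (7) had no gene past the threshold, with medians of 0.29, -0.12 and 0.16. Globin and other red cell transcripts summed to 6302 to 21203 FPKM in Mb and 6748 to 10922 FPKM in Fb, highest in Mb replicate 1. The part of these tissues in the regional result was not tested.

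The next comparison asked whether the regional programme of DKO_CD was that of WT. WT Mb and Fb differed in 1102 of 13344 genes (8.26%), 622 higher and 480 lower in Mb, with 6 libraries on each side. Of the 68 DKO_CD genes, 60 passed in WT in the same direction, which is 88.2% of the DKO_CD genes and 5.44% of the WT genes. Of the 1082 WT genes that were tested in DKO_CD, 999 (92.3%) had the same sign there. Pearson's r across these genes was 0.875 and Spearman's coefficient 0.910, both as descriptions across genes that are not independent of each other. WT genes higher in Mb by at least 2 on the log2(FPKM + 1) scale numbered 47. Their median was 2.51 in WT, 1.94 in DKO_CD and 2.56 in DKO_Ex, where 46 were tested, and 46 of the 47 were above 0 in DKO_CD. WT genes lower in Mb by at least 2 also numbered 47. Their medians were -3.19, -3.02 and -2.95, and all 47 were below 0 in DKO_CD. Since these genes were chosen by their size in WT, the WT medians are the values of the choice.

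**Figure D4:**
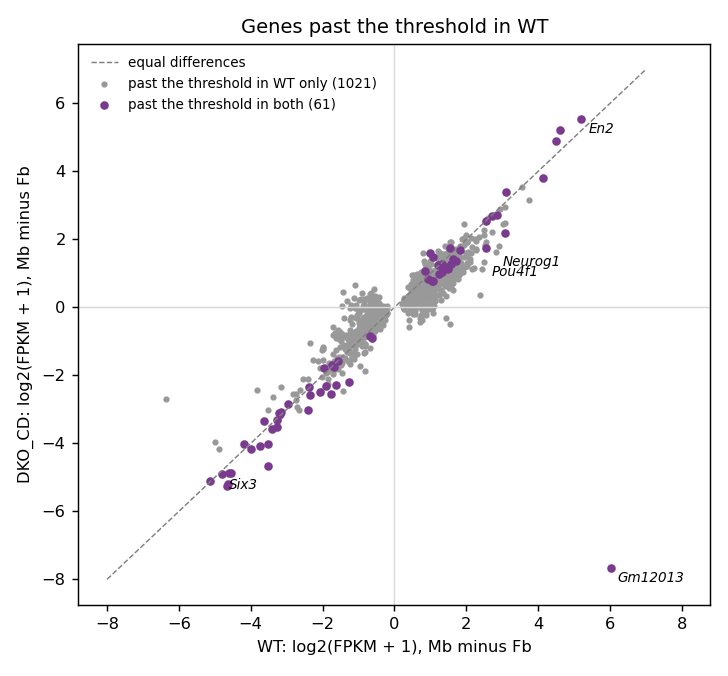
Mb minus Fb difference of log2(FPKM + 1) in WT on the x axis and in DKO_CD on the y axis for the 1082 genes past the threshold in WT and tested in DKO_CD, 1 point per gene, with a dashed line at equal differences. The 61 genes past the threshold in both lie near the line except Gm12013, at 6.02 in WT and -7.66 in DKO_CD.

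For the leading genes the difference between DKO_CD and WT did not pass. Six3 lay at 34.9 to 48.9 FPKM (median 37.1) in WT Fb and at 0 to 1.36 FPKM in WT Mb, and the difference between DKO_CD and WT was -0.10 (95% interval -0.80 to 0.59). For Six6 it was -0.04 (-0.52 to 0.45). En1 lay at 3.57 to 59.0 FPKM (median 41.8) in WT Mb, which is a wider range than in DKO_CD Mb, and the difference was 0.39 (-1.37 to 2.15). For En2 it was 0.35 (-0.99 to 1.69) and for Wnt1 -0.13 (-1.16 to 0.90). The intervals of En1, En2 and Wnt1 are wide and do not show that the sizes were equal.

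In the test of the difference between DKO_CD and WT, 1 of 13397 genes passed (0.00746%), and 647 had an unadjusted p under 0.05. It was Gm12013, a processed pseudogene of 155 bp at chr11:17095490-17095644. In DKO_CD it lay at 252, 168 and 192 FPKM in Fb and was listed at 0 in all Mb libraries, and in WT it was listed at 0 in all 6 Fb libraries and in 1 Mb library and lay at 128 to 183 FPKM in the other 5 Mb libraries. Across the 32 libraries it was either listed at 0, in 20, or at 128 to 446 FPKM, in 12, and no library lay between. Within TKO_Ex Fb it was at 0 in 2 of 4 libraries. Processed pseudogenes share sequence with their parent genes, so this value is uncertain. The same holds for the processed pseudogene Gm9174 and the multicopy small nucleolar RNA Rnu3b3, which passed in DKO_CD but not in WT and were listed at 0 in 3 and 2 of the DKO_CD Mb libraries. The other DKO_CD genes that did not pass in WT were Anxa2, Nme1, Ndnf, Lgals1 and Gm15655, and none of them differed between DKO_CD and WT past the threshold. For Anxa2 the difference was 1.31 (adjusted p = 0.881).

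Several lists were shifted between DKO_CD and WT with no member past the threshold. Over all 13397 genes tested, the shift was below 0 in 7165 and above 0 in 6232, with a median of -0.02. Of the proneural and early neuron genes, 22 of 23 had a smaller Mb minus Fb difference in DKO_CD, with a median shift of -0.59. In limma, 4 members had an unadjusted p under 0.05, and the smallest adjusted p was 0.990. The list's median was 1.71 in WT and 0.91 in DKO_CD. The shift changed when each of the 18 libraries was left out in turn, from -0.45 without Mb replicate 2 to -0.82 without Mb replicate 1 of DKO_CD, an alternative chosen after seeing the data. The cranial mesenchyme markers were shifted the other way, by a median of 0.90, with 9 of 9 above 0, 5 at an unadjusted p under 0.05 and a smallest adjusted p of 0.979. Twist1, a mesenchymal factor, lay at 51.2, 73.7 and 43.4 FPKM in DKO_CD Mb and at 29.0 to 49.6 FPKM (median 33.5) in WT Mb. The summed markers were 198 to 296 FPKM in DKO_CD Mb and 118 to 222 FPKM in WT Mb. In Fb they were 114 to 244 FPKM in DKO_CD and 208 to 239 FPKM in WT. In DKO_Ex they were 156 to 214 FPKM in Mb and 151 to 177 FPKM in Fb, so a shift from WT was not particular to DKO_CD by these sums. Leaving out a library moved the mesenchyme shift of DKO_CD between 0.62, without Fb replicate 2, and 1.04. Neural progenitor genes were shifted by a median of -0.27, with 16 of 20 below 0 and 5 at an unadjusted p under 0.05. Neural crest markers were shifted by 0.37, with 4 of 5 above 0. The Fb and Mb factor lists were shifted by -0.10 and -0.13.

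**Figure D5:**
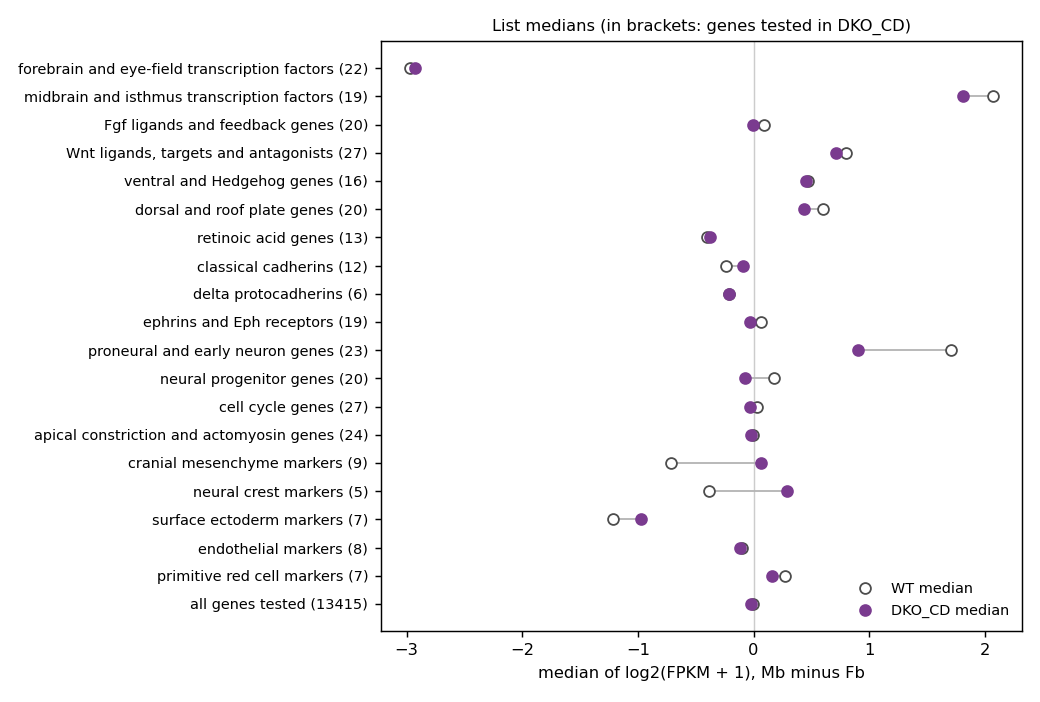
Median Mb minus Fb difference of log2(FPKM + 1) on the x axis for each gene list and for all genes tested on the y axis, open circles for WT and filled circles for DKO_CD, with the number of genes tested in DKO_CD in brackets. The Fb and Mb factor lists lie at -2.93 and 1.81 in DKO_CD, and the widest gaps between the groups are those of the proneural genes (0.91 against 1.71 in WT) and the cranial mesenchyme markers (0.06 against -0.71 in WT).

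The last comparison asked whether the regional programme differed between the DKO embryos without and with exencephaly. In the test of that difference, which shares no WT library, 2 of 13393 genes passed (0.0149%), and 676 had an unadjusted p under 0.05. Tmem141, which encodes a small membrane protein (chr2:25620067-25622005), lay at 3.60, 3.33 and 3.97 FPKM in DKO_CD Mb and at 5.87, 7.14 and 7.79 FPKM in DKO_CD Fb, and at 13.8, 9.75 and 12.5 FPKM in DKO_Ex Mb and 4.02, 4.82 and 4.43 FPKM in DKO_Ex Fb. The tissues were separate in both groups and in opposite order (-2.02, adjusted p = 0.0183). Gm20302, a processed pseudogene, was listed at 0 in all 6 DKO_CD libraries and all 3 DKO_Ex Fb libraries and lay at 7.02 to 8.70 FPKM in DKO_Ex Mb, and it was also listed at 0 in 9 of the 12 WT libraries, with 8.37 to 9.38 FPKM in the other 3. Neither gene passed in the fit with the replicate number as a block or in the fit of all 32 libraries, and none passed without DKO_CD Mb replicate 2 or without DKO_Ex Mb replicate 3. There were 7 without DKO_Ex Fb replicate 3, and 4 without DKO_Ex Fb replicate 1 or 2 or DKO_CD Mb replicate 1 or 3. There was 1 without DKO_Ex Mb replicate 1 or 2. Without DKO_Ex Mb replicate 1 it was neither Tmem141 nor Gm20302. The differences of the regional genes did not pass, with -0.02 ± 0.31 for En2, -0.34 ± 0.64 for En1 and 0.19 ± 0.46 for Six3.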

How the data were processed

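Total RNA of dissected Fb and Mb tissue was sequenced from directional libraries. The authors used TopHat2 with GRCm38/mm10 and Cufflinks, per the labels, and deposited gene-level FPKM, which are normalized to gene length and mapped fragments. The alignment was set for a stranded library. The versions and the strand setting of Cufflinks are not given in the sources used here. The authors' own tests used HTSeq counts and DESeq2, which were not repeated, since counts were not used here. FPKM of 65 repeated identifiers were summed, and 48218 of 48576 identifiers were found in GENCODE M21. Depth was estimated from the steps between low FPKM of 771 genes, and limits and intervals cover the spread between libraries only.

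From the deposited FPKM, log2(FPKM + 1) was fitted with limma 3.58.1 in R 4.3.3 (lmFit, eBayes with a mean-variance trend) over genes that averaged 1 FPKM or more in the libraries of the fit, with Benjamini-Hochberg adjustment and a threshold of 0.05. A difference is a log2 difference on this scale, ± its SE, and understates the change of low genes. DKO_CD was fitted alone, and the differences from WT (18 libraries) and DKO_Ex (12 libraries) as an interaction of tissue and group. The fit was tested on simulated data. Nothing in the labels says that the libraries came from separate embryos, so p-values measure the spread between these samples.

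The members and lists were chosen with earlier results of these data known. Named genes were the list members, Cdh6, Cdh8 and Cdh11, the 15 largest and 15 smallest differences among protein-coding genes past the threshold whose tissues did not overlap, and up to 10 genes per test of a difference. For any other gene the text says that its values were known when it was chosen. Tubb3 and Foxc2 were not analysed here, and some genes named by these rules are not reported here. Alternatives were another pseudocount, filter, scaling or trend, a replicate block, grouping by record, all libraries in one fit, and leaving out each library.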

Additional observations from a re-analysis of the deposited data

Results flagged for a closer look

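Gm12013 differed between groups: its Mb minus Fb difference in DKO_CD minus that in WT was -13.68 on the log2(FPKM + 1) scale (adjusted p = 0.0018), with every library listed at 0 or at 127.6 FPKM or more. Between DKO_CD and DKO_Ex, the Mb minus Fb difference of Tmem141 differed by -2.02 (adjusted p = 0.0183) and that of Gm20302 by -3.10 (adjusted p = 0.0135).

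Of 35 WT groups of 6 libraries examined at the region markers and the targeted cadherins, 3 held a sample far from the others by Dixon's criterion. For normally distributed values, chance gives this in about 1 of 20 groups, a rate that does not hold for values at or near 0. Lhx2 lay at 9.05 FPKM in WT Mb replicate 5, where the next highest WT Mb library had 2.86 FPKM. Fezf2 lay at 0.172 FPKM in WT Mb replicate 2, where the other 5 were listed at 0, so any value above 0 would have been flagged. En2 lay at 0.519 FPKM in WT Fb replicate 5, where the next highest had 0.113 FPKM. Groups of 3, DKO_CD among them, were not examined in this way.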

How the results depend on the processing

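All 30 genes named by the rule kept their sign in each of 17 alternatives. For most alternatives this was fixed by the rule, which took only genes whose tissues did not overlap. Leaving out a library or changing the pseudocount, filter, trend or block could not turn a sign. Only scaling, quantile normalization and the grouping by record could. Of the 30, 13, among them En1, En2, Cnpy1, Nkd1, Six3 and Dlk1, passed the threshold in each alternative. The 68 genes of DKO_CD became 362 with all 32 libraries in one fit (65 shared), 344 with the grouping by record (56 shared), 40 with the replicate block (36 shared), and 26 to 77 when a library was left out: 26 without Fb replicate 1 or 3, 35 without Mb replicate 3, 46 and 47 without Mb replicates 2 and 1, and 77 without Fb replicate 2. Of the 30 named genes, 13 lost their call without Fb replicate 1, 17 without Fb replicate 3, 11 without Mb replicate 3, 7 without Mb replicate 1 or 2, and 1 without Fb replicate 2. The block ended the calls of Pax5, Nefm and Col1a1 (adjusted p = 0.0715, 0.0836 and 0.0622) among others. Calls were gained as well. In limma, Pax6 and Gbx2 passed without Mb replicate 1 (adjusted p = 0.0207 and 0.0235), and Wnt1 without Fb replicate 2 (adjusted p = 0.00905). Same-numbered Fb and Mb libraries of DKO_CD correlated in their deviations by 0.14, 0.06 and 0.03. They were taken to share only a number, although correlations over 3 libraries per tissue cannot decide whether they came from 1 embryo. Mb replicate 3 correlated best with Fb replicate 2 (0.05), the other 2 with their own number. Each Fb library correlated best with the Mb library of its own number. The 1 gene that differed from WT became 5 with no filter, 2 with quantile normalization, and 0 with the grouping by record or all 32 libraries in one fit. It was 1 whichever library was left out, and with the replicate block. The 2 genes that differed from DKO_Ex became 7 with no filter, 0 with the replicate block, 0 with all 32 libraries, and 0 to 7 when a library was left out. For WT, leaving out a library gave 870 to 1317 genes of 1102. The difference of Otx2 in DKO_CD turned to 0.38 with the grouping by record and to 0.42 without Mb replicate 2, those of Fgf8, Nme1 and Gm9174 to 0.19, 0.48 and 2.51 with the grouping by record, and that of Cdh11 to -0.13 without Fb replicate 2 and -0.005 without Mb replicate 2. When a library was left out, Otx2 ranged from -1.05 to 0.42 and Cdh11 from -0.13 to 0.34. The causes were not tested. At 2.47 to 2.80 M fragments, differences of genes near 1 FPKM rest on few fragments.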
